A study of Mus musculus with 16 samples.

Results

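Interferon-stimulated genes are the genes that cells switch on when an interferon binds its receptor, and their products make up much of the intracellular defense against viruses. A list of 41 such genes was followed by symbol through the 55492 genes of the deposited table, and all 41 were found in it. Of these, 34 were treated as targets of type I interferon, and the 7 Gbp and Irg genes, which encode interferon-inducible GTPases and answer to type II interferon as well, were described apart. Transcripts were sequenced from the left ventricles of 16 male C57BL/6 mice aged 8 to 12 weeks, each library from its own mouse. The control genotype was PKM2fl/fl, in which exon 10 of *Pkm*, the exon of the PKM2 isoform, is flanked by loxP sites. The PKM2-/- mice lacked that exon in every tissue after germline deletion by CMV-Cre, an early and broadly active Cre, which was then bred out. There were 2 unoperated hearts of each genotype at baseline, 3 of each taken 3 days after sham surgery, and 3 of each taken 3 days after myocardial infarction (MI) by ligation of the left anterior descending artery. The deletion was in the whole animal, so that leukocytes and other cells in the heart lacked the exon too.

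Type I interferons (IFN-α and IFN-β) bind the receptor IFNAR1/IFNAR2, whose kinases TYK2 and JAK1 start the signal. It leads to the complex ISGF3, which contains STAT2 and IRF9 and binds a sequence called the ISRE, whereas type II interferon (IFN-γ) acts through a sequence called GAS. In the infarcted heart, macrophages that take up the contents of dying cells are a known source of type I interferon, made after DNA is sensed by cGAS and STING and IRF3 is activated.

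Values are normalized counts, that is, reads per gene divided by the size factor the authors computed for each library. The libraries held 20623769 to 71855101 reads on genes, and each of the 41 genes had a mean of at least 10 normalized counts over the 16 libraries, the minimum for testing. Genes were compared with limma on log2(normalized count + 1) over 20576 genes in a fit of all 16 libraries. A gene was called when its Benjamini-Hochberg adjusted p was under 0.05 and its change was at least 2-fold. Fold changes are given on that log2 scale with their standard error (SE), and they are relative to the size factors. *Pkm* is counted over both isoforms and so does not check the genotype labels. It had 7779 to 12076 normalized counts in PKM2fl/fl and 10120 to 16113 in PKM2-/- hearts. Cardiomyocyte markers, summed over 6 genes, were at 148362 to 892925 normalized counts in every library. Reads on rRNA loci (*mt-Rnr1*, *mt-Rnr2* and *CT010467.1*) took 15.4 to 44.5% of each library, and at baseline they took 17.2 and 22.1% in PKM2fl/fl against 43.0 and 38.6% in PKM2-/- hearts.

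The stretches of promoter that hold ISRE and GAS letters are shown first, since part of the members share these letters. A RefSeq promoter window on GRCm38.p6 (mm10), from 250 bases before to 50 after the start site, could be matched for 30 of the 41 genes. The ISRE was searched as GAAANNGAAA and GAS as TTCNNNGAA, on both strands, so that an ISRE on the other strand reads TTTCNNTTTC. *Gbp3*, *Trim30a*, *Irf9* and *Ifit2* had further windows, and a gene was counted when any of its windows held the letters. The ISRE letters were found for 19 of the 30 genes (63.3%), against 3.99% of the 27025 genes with a window. They were found for 13 of the 24 type I targets with a window and for 6 of the 6 Gbp and Irg genes with a window. The further *Gbp3* window held no ISRE letters. The GAS letters were found for 7 of the 30 genes (23.3%), against 9.55% of all genes with a window, and 3 of these 7 were Gbp and Irg genes. Such a match is a description of the sequence and not a mapped binding site. In the following stretches the ISRE and GAS letters are in capitals, read 5′ to 3′ on the strand of the gene.

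The first 6 are from type I targets and show how the letters repeat in *Isg15* and *Ifit1*, sit against GAS letters in *Bst2*, and stand alone in *Oas3*, *Rsad2* and *Stat2*.
*Isg15* (chr4:156200855-156200916, reverse strand, capitals 78 to 57 bases before the start site): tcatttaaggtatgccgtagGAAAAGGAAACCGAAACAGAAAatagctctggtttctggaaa
*Ifit1* (chr19:34640765-34640833, forward strand, capitals 104 to 76 bases before the start site): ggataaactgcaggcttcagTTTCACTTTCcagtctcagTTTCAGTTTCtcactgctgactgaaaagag
*Bst2* (chr8:71537567-71537628, reverse strand, capitals 136 to 115 bases before the start site): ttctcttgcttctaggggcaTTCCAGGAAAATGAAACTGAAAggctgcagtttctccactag
*Oas3* (chr5:120777705-120777754, reverse strand, capitals 75 to 66 bases before the start site): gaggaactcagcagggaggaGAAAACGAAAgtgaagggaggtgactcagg
*Rsad2* (chr12:26456543-26456592, reverse strand, capitals 120 to 111 bases before the start site): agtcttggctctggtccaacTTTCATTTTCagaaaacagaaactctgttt
*Stat2* (chr10:128270256-128270305, forward strand, capitals 222 to 213 bases before the start site): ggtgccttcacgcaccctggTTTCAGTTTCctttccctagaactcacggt
In *Bst2*, which encodes the virus-tethering protein tetherin, the end of the GAS letters is the start of the first ISRE.

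The next 6 are from the Gbp and Irg genes and show that the ISRE began at most 59 bases before the start site in these members, with GAS letters upstream of it in *Igtp* and *Gbp7*.
*Gbp2* (chr3:142620584-142620633, forward strand, capitals 59 to 50 bases before the start site): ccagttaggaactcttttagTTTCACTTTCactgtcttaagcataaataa
*Gbp3* (chr3:142559993-142560020, forward strand, capitals 45 to 30 bases before the start site): acacagTTTCAGTTTCTATTTCccagat
*Gbp7*, GAS (chr3:142530210-142530277, forward strand, capitals 106 to 79 bases before the start site): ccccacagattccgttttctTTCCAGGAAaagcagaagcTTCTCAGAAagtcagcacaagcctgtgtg
*Gbp7*, ISRE (chr3:142530263-142530312, forward strand, capitals 53 to 44 bases before the start site): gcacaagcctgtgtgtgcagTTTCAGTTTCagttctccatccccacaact
*Igtp* (chr11:58199491-58199551, forward strand, capitals 45 to 25 bases before the start site): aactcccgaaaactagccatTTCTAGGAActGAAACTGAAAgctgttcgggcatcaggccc
*Irgm1* (chr11:48871421-48871470, reverse strand, capitals 30 to 15 bases before the start site): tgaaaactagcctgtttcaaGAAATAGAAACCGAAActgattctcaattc
In *Gbp5*, the remaining gene of this family with a window, the ISRE was 165 bases before the start site and the GAS letters were 245 and 52 bases before it.

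**Figure D1:**
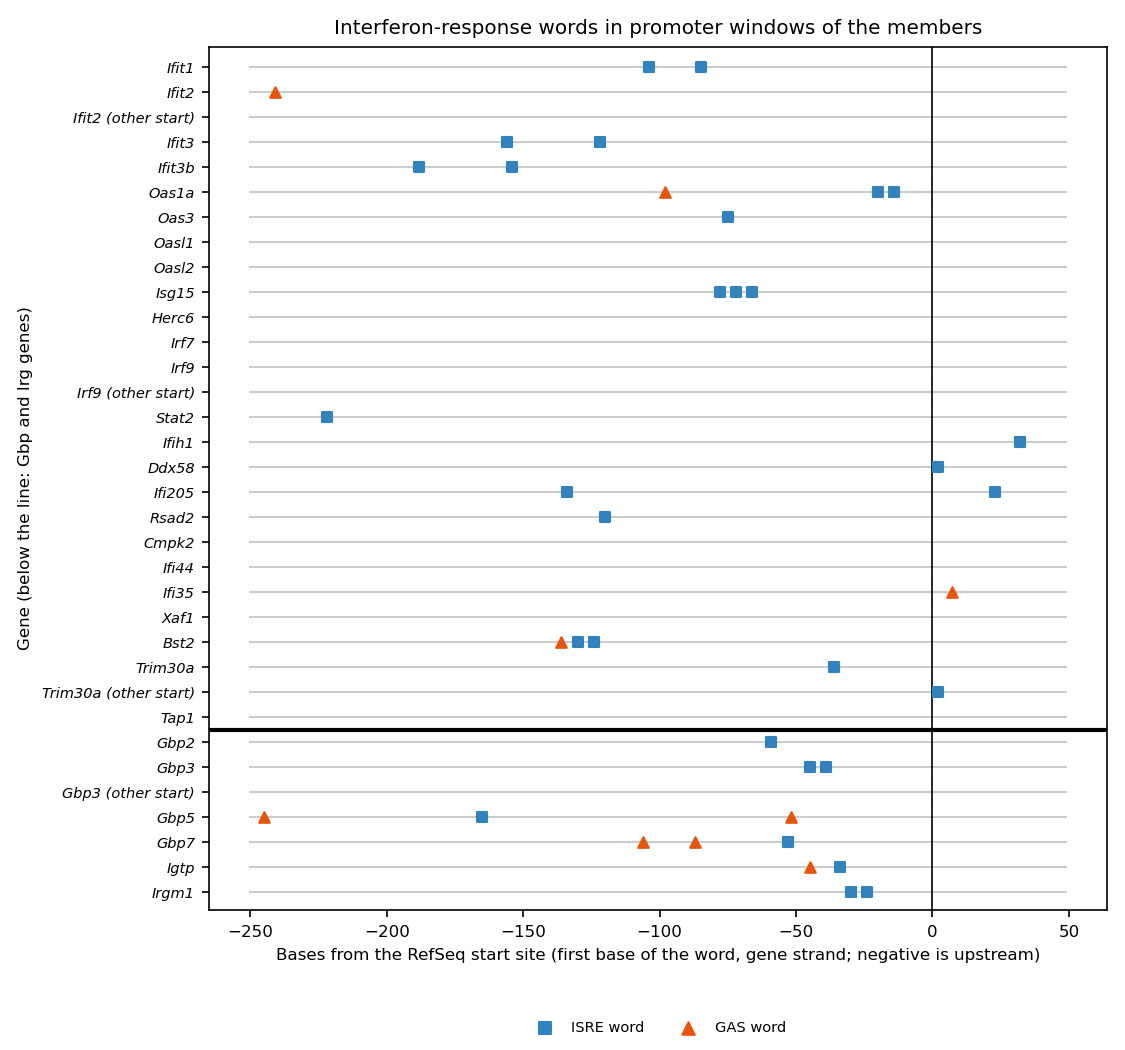
Position of the ISRE letters (squares) and the GAS letters (triangles) in each 300-base promoter window, 1 line per window, with the RefSeq start site at 0. ISRE letters were found in 6 of 6 Gbp and Irg genes and in 13 of 24 type I targets with a window.

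Several members lie side by side in the genome, and some are near copies. In RefSeq, *Ifit2*, *Ifit3*, *Ifit3b* and *Ifit1* lie on chromosome 19 between 34550550 and 34650009, and *Gbp5*, *Gbp7*, *Gbp3* and *Gbp2* on chromosome 3 between 142496934 and 142638008. *Oas2*, *Oas3* and *Oas1a* share chromosome 5 with *Oasl2* and *Oasl1*. The longest transcripts of *Ifit3* and *Ifit3b* matched at 97.2% over 1978 bases, and those of *Mx1* and *Mx2* at 94.8% over 344 and at 93.1% over 422 bases. How the counting treated reads that fit more than 1 gene is not stated, so the split of reads within these 2 pairs is uncertain. The following stretches show the same ISRE letters and flanks in both *Ifit3* and *Ifit3b*. They lie inside the RefSeq span of their gene, before the start site of the window that was matched.
*Ifit3*, first (chr19:34583367-34583388, forward strand, capitals 156 to 147 bases before the start site): ggtaagTTTCACTTTCctcttc
*Ifit3*, second (chr19:34583401-34583422, forward strand, capitals 122 to 113 bases before the start site): agtctgTTTCAGTTTCtacttt
*Ifit3b*, first (chr19:34607763-34607784, forward strand, capitals 188 to 179 bases before the start site): ggtaagTTTCACTTTCctcttc
*Ifit3b*, second (chr19:34607797-34607818, forward strand, capitals 154 to 145 bases before the start site): agtctgTTTCAGTTTCtacttt

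Some hearts stood apart from the others of their group over nearly the whole list. In PKM2fl/fl sham heart 3, 39 of the 41 genes were the highest of the 3 hearts, against 31.0% of all genes. PKM2-/- sham heart 1 was the highest of its group for 40 of 41, against 29.2% of all genes. After MI, PKM2fl/fl heart 3 was the lowest of its group for 41 of 41 (41.2% of all genes) and PKM2-/- heart 1 for 39 of 41 (34.1%). At baseline, PKM2fl/fl heart 1 was the higher of the pair for 39 of 41 (51.7%) and PKM2-/- heart 1 for 33 of 41 (51.3%). The median ratio of the highest to the lowest heart was 2.26 over the members and 1.24 over all genes in PKM2fl/fl sham hearts, and 2.06 against 1.32 in PKM2-/- sham hearts. It was 1.94 against 1.40 in PKM2fl/fl and 1.65 against 1.27 in PKM2-/- hearts after MI. The Gbp and Irg genes varied more than the type I targets, with median ratios of 3.04 and 3.37 in the sham groups, where those of the type I targets were 2.02 and 2.01. Macrophage and monocyte markers, summed over 8 genes, were at 5322 normalized counts in PKM2fl/fl sham heart 3, the lowest of its group (7938 and 9764 in the others). They were at 8836 in PKM2-/- sham heart 1, the highest of its group (6557 and 8027 in the others). Neutrophil markers, summed over 5 genes, were at 224 in PKM2fl/fl sham heart 3 and at 974 to 1312 in the other 5 sham hearts. The part of either cell type in these differences was not tested.

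**Figure D2:**
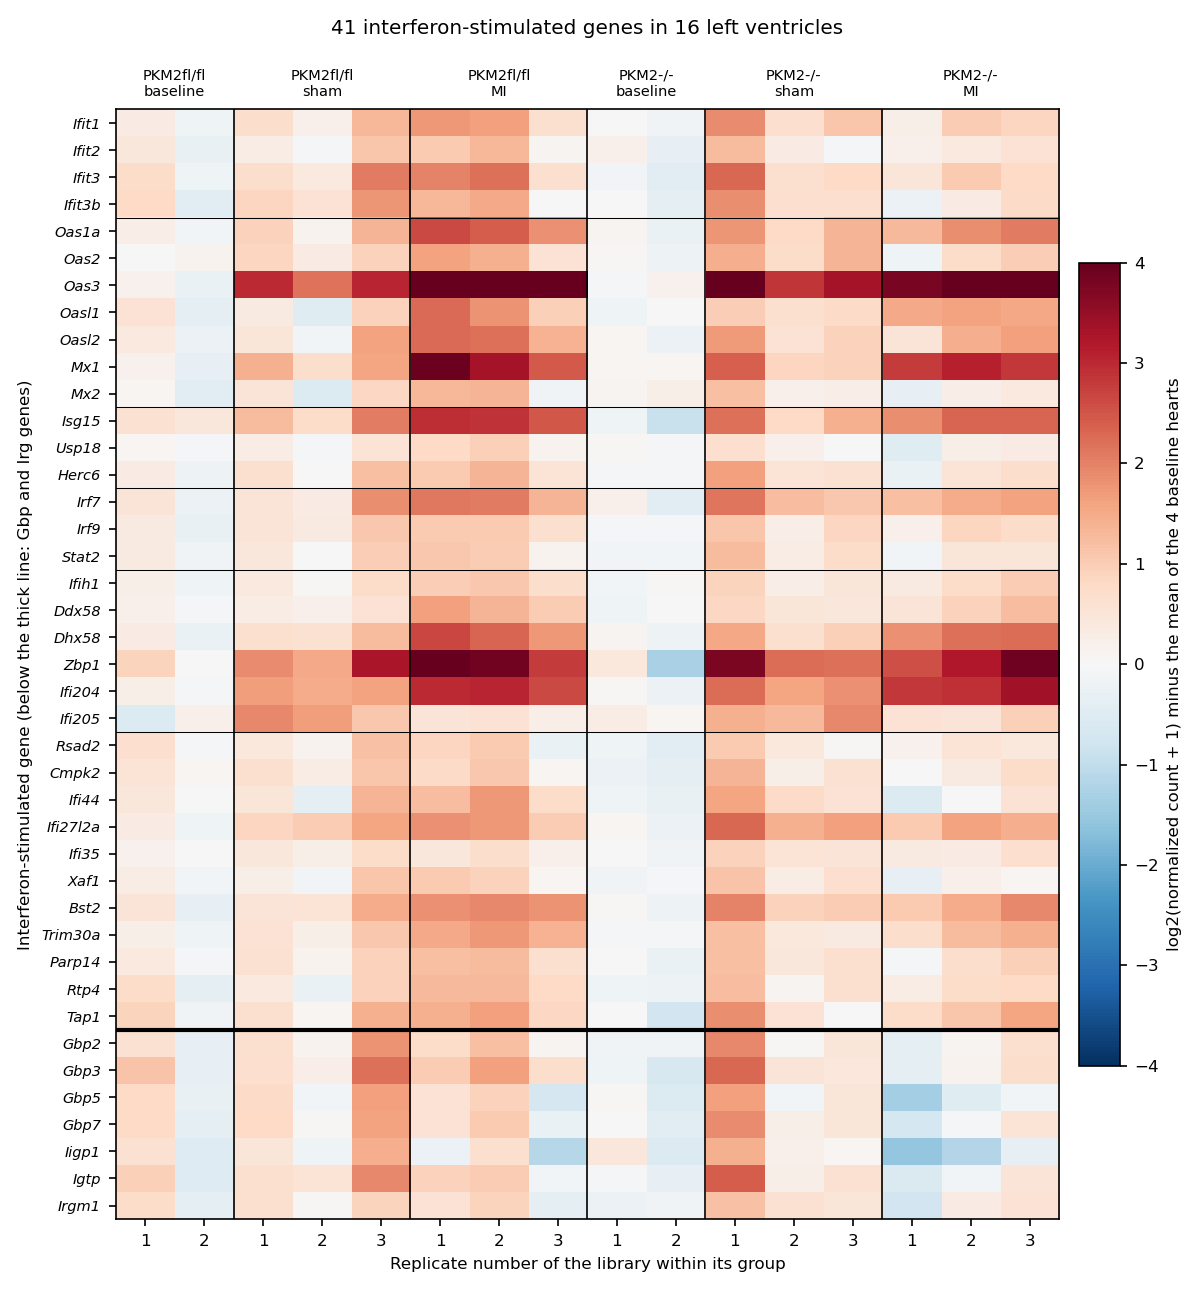
Heat map of the 41 genes (rows) in the 16 hearts (columns, replicate numbers within groups). Color gives log2(normalized count + 1) minus the mean of the 4 baseline hearts, clipped at 4 units on either side. PKM2fl/fl sham heart 3 and PKM2-/- sham heart 1 are redder than the other sham hearts in nearly every row, and the Gbp and Irg genes lie below the thick line.

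Sham hearts had on average more interferon-stimulated transcripts than unoperated hearts, but single hearts overlapped. As log2 units above the 4 baseline hearts' mean, the type I median was 0.22 in PKM2fl/fl sham heart 2 and 0.35 in PKM2fl/fl baseline heart 1. That of the Gbp and Irg genes was 0.79 in PKM2fl/fl baseline heart 1. It was 0.66, 0.06 and 1.63 in PKM2fl/fl sham hearts 1 to 3, and 1.89, 0.25 and 0.48 in PKM2-/- sham hearts 1 to 3. Over both genotypes, the log2 fold change was above 0 for 41 of 41 members, against 53.2% of all genes, with a median of 0.78 (all genes, 0.015). The test called 10 of the 41 as higher and 0 as lower, against 2.06% of all genes called higher. The 6 sham hearts lay above all 4 baseline hearts for 12 members, against 4.20% of all genes, and all 12 were type I targets. Of the 10 called, 3 were sensors of nucleic acids (*Ifi204*, *Ifi205*, *Zbp1*) and 3 were genes of the OAS and Mx families (*Oas3*, *Oas1a*, *Mx1*). The others were *Isg15*, *Irf7*, *Ifi27l2a* and *Bst2*. limma over the 16 libraries called none of the 4 Ifit genes and none of the 7 Gbp and Irg genes, whose medians were 1.02 and 0.84. Other fits did call some of them. DESeq2 called *Ifit1* (log2 fold change 1.05, DESeq2 adjusted p = 0.00375) and *Ifit3b* (1.11, DESeq2 adjusted p = 0.0397), and edgeR called *Ifit1* (1.04, edgeR adjusted p = 0.0447). Scaling to total reads called 17 members, with *Ifit1*, *Ifit3*, *Ifit3b*, *Gbp3* and *Igtp* among them. Leaving out 1 library kept the median of all members between 0.60 and 0.99, and the Gbp and Irg median was 0.55 without PKM2fl/fl baseline heart 2. The median of all members was 0.61 without PKM2fl/fl sham heart 3 and 0.60 without PKM2-/- sham heart 1. In bulk tissue, fewer cells of a type and less RNA per cell cannot be told apart. Macrophage and monocyte markers were at 3506 to 4997 normalized counts at baseline and 5322 to 9764 after sham, and neutrophil markers (5 genes) at 82.4 to 187 and 224 to 1312, and their part in the rise was not tested.

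*Ifi204* encodes a PYHIN protein of the family that binds DNA. It had normalized counts of 139.7 and 115 at baseline, 380.1, 335 and 365 after sham and 959.9, 996 and 755 after MI in PKM2fl/fl hearts. *Ifi204* in PKM2-/- hearts had 124 and 103 at baseline, 561, 359 and 430.4 after sham and 849.6, 921 and 1231 after MI. The 3 conditions did not overlap in either genotype, in the order baseline, sham, MI. The gene rose 3.32-fold with sham surgery (log2 fold change 1.73 ± 0.14 SE, limma adjusted p = 6.36e-06), and its hearts were the least spread of the members in the PKM2fl/fl sham group.

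*Ifi205*, another PYHIN gene, went a different way. Its normalized counts in PKM2fl/fl hearts were 227 and 386 at baseline, 1259, 1079.9 and 711 after sham and 478, 499 and 405 after MI. Those of PKM2-/- hearts were 409 and 350.0 at baseline, 903, 820.2 and 1284 after sham and 504, 483 and 645 after MI. All 6 sham hearts were above all other hearts, so that *Ifi205* rose from baseline to sham (log2 fold change 1.56 ± 0.18 SE, limma adjusted p = 0.000260) and was lower after MI than after sham in both genotypes. It was the only member called lower after MI in PKM2fl/fl hearts (log2 fold change −1.11 ± 0.23 SE, limma adjusted p = 0.000920). In PKM2-/- hearts the fall passed the adjusted p but was under 2-fold (log2 fold change −0.87 ± 0.23 SE, limma adjusted p = 0.00457). Without PKM2fl/fl sham heart 1 the fall in PKM2fl/fl hearts was also under 2-fold (log2 fold change −0.93, limma adjusted p = 0.00683).

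*Oas3* encodes a large oligoadenylate synthetase, which senses double-stranded RNA and activates RNase L. Its normalized counts were 10.99 and 7.96 at baseline, 84.6, 47.2 and 87.7 after sham and 445, 290.4 and 211 after MI in PKM2fl/fl hearts. *Oas3* in PKM2-/- hearts had 9.32 and 11.00 at baseline, 196, 77.1 and 106 after sham and 148, 266 and 384 after MI. It was lowest in the 4 baseline hearts and showed the largest rise of the members with sham surgery (log2 fold change 3.10 ± 0.31 SE, limma adjusted p = 6.87e-05). In PKM2-/- its sham and MI hearts overlapped. The nucleic acid sensor *Zbp1*, which triggers necroptosis, had 54.2 and 27.9 at baseline, 108, 83.1 and 279.9 after sham and 488, 427 and 202 after MI in PKM2fl/fl hearts. *Zbp1* in PKM2-/- hearts had 38.5 and 11.00 at baseline, 397, 137 and 135 after sham and 174, 272 and 439 after MI. All sham hearts were above all baseline hearts (log2 fold change 2.47 ± 0.45 SE, limma adjusted p = 0.00418), and sham heart 3 of PKM2fl/fl and sham heart 1 of PKM2-/- were far above the other sham hearts.

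*Isg15* encodes a ubiquitin-like protein that is joined to other proteins during the interferon response. It had normalized counts of 53.4 and 47.1 at baseline, 83.4, 58.5 and 147 after sham and 275, 260.4 and 198 after MI in PKM2fl/fl hearts. *Isg15* in PKM2-/- hearts had 30.3 and 18.3 at baseline, 164, 60.1 and 93.9 after sham and 129, 175 and 176 after MI. All sham hearts were above all baseline hearts (log2 fold change 1.41 ± 0.28 SE, limma adjusted p = 0.00714), and in PKM2fl/fl the MI hearts were above the sham hearts as well. *Irf7*, the transcription factor that amplifies interferon production, had 238 and 141 at baseline, 241, 210.4 and 612 after sham and 717, 705 and 432 after MI in PKM2fl/fl hearts. *Irf7* in PKM2-/- hearts had 191 and 121 at baseline, 748, 392 and 357 after sham and 386, 467 and 516 after MI. It rose with sham surgery (log2 fold change 1.20 ± 0.30 SE, limma adjusted p = 0.0241), with sham heart 2 of PKM2fl/fl below baseline heart 1, and after MI the PKM2-/- hearts lay within the range of their sham group.

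*Mx1* belongs to the Mx family of genes for dynamin-like GTPases, and no activity of its product was measured here. It had normalized counts of 43.96 and 30.5 at baseline, 104, 63.6 and 116 after sham and 594, 398 and 216 after MI in PKM2fl/fl hearts. *Mx1* in PKM2-/- hearts had 40.8 and 40.3 at baseline, 204, 70.5 and 73.4 after sham and 276, 339 and 277 after MI. The 3 conditions did not overlap in either genotype, and the rise with sham surgery was called (log2 fold change 1.30 ± 0.31 SE, limma adjusted p = 0.0201). *Oas1a*, a smaller oligoadenylate synthetase, had 83.2 and 63.0 at baseline, 130.4, 76.0 and 178 after sham and 436, 373 and 244 after MI in PKM2fl/fl hearts. *Oas1a* in PKM2-/- hearts had 74.6 and 56.8 at baseline, 238, 119 and 176 after sham and 170.2, 254 and 293 after MI. Its rise with sham surgery was called (log2 fold change 1.05 ± 0.26 SE, limma adjusted p = 0.0228), with sham heart 2 of PKM2fl/fl within the baseline range.

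*Ifi27l2a*, whose product sits in the membranes of mitochondria and nucleus, had normalized counts of 305 and 213 at baseline, 442, 493 and 716 after sham and 849, 803 and 483 after MI in PKM2fl/fl hearts. *Ifi27l2a* in PKM2-/- hearts had 254 and 203 at baseline, 1196, 644 and 756 after sham and 503, 741 and 665 after MI. All sham hearts were above all baseline hearts (log2 fold change 1.47 ± 0.21 SE, limma adjusted p = 0.000950). *Bst2* had 264 and 147 at baseline, 266, 273 and 527 after sham and 665, 705 and 649 after MI in PKM2fl/fl hearts. *Bst2* in PKM2-/- hearts had 190.0 and 161 at baseline, 731, 355 and 374 after sham and 387, 521 and 711 after MI. The rise of *Bst2* with sham surgery was called (log2 fold change 1.08 ± 0.25 SE, limma adjusted p = 0.0163), and here too sham heart 3 of PKM2fl/fl and sham heart 1 of PKM2-/- were the highest of their groups.

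Of the 10 calls between sham and baseline hearts, 6 held in each of the 16 fits that left out 1 library (*Ifi204*, *Ifi205*, *Zbp1*, *Isg15*, *Oas3* and *Ifi27l2a*). In parentheses after each library are the log2 fold change and the limma adjusted p without it. The *Irf7* call was lost without PKM2fl/fl baseline heart 2 (1.01, 0.125), PKM2fl/fl sham heart 3 (0.96, 0.0256), PKM2-/- baseline heart 2 (1.04, 0.113) or PKM2-/- sham heart 1 (1.03, 0.0537). The *Bst2* call was lost without PKM2fl/fl baseline heart 2 (0.87, 0.09998), PKM2fl/fl sham heart 3 (0.92, 0.0242), PKM2-/- baseline heart 2 (1.02, 0.0671) or PKM2-/- sham heart 1 (0.91, 0.0324). The *Mx1* call was lost without PKM2fl/fl baseline heart 2 (1.18, 0.0972), PKM2fl/fl sham heart 1 (1.26, 0.0505), PKM2-/- baseline heart 1 (1.31, 0.0605) or PKM2-/- baseline heart 2 (1.30, 0.0647). The *Oas1a* call was lost without PKM2fl/fl baseline heart 1 (1.15, 0.0505), PKM2fl/fl baseline heart 2 (0.96, 0.105), PKM2fl/fl sham heart 1 (1.03, 0.0548), PKM2fl/fl sham heart 3 (0.92, 0.0395), PKM2-/- baseline heart 2 (0.96, 0.0963) or PKM2-/- sham heart 1 (0.93, 0.0537). The number called fell from 10 to 6 without PKM2fl/fl baseline heart 2 and likewise without PKM2-/- baseline heart 2.

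After MI, PKM2fl/fl hearts had higher levels than sham hearts of a group of antiviral and RNA-sensing genes, and no Gbp or Irg gene was among them. The sham hearts here are the same ones that were compared with baseline hearts. The test called 8 members as higher, *Oas3*, *Mx1*, *Oas1a*, *Isg15*, *Oasl1*, *Dhx58*, *Ifi204* and *Oasl2*, and 1, *Ifi205*, as lower. Of all genes, 12.4% were called higher and 11.1% lower, so the 8 of 41 stood above the share of all genes and the 1 of 41 below it. The MI hearts lay above the sham hearts for 10 members and below for 1, against 30.0% and 29.0% of all genes, so that the share of members whose groups did not overlap was no higher than that of all genes. The median log2 fold change was 0.58 over the 34 type I targets, −0.38 over the 7 Gbp and Irg genes and −0.0025 over all genes. When libraries were scaled to their total reads, which shifted the all-gene median to −0.17, those medians were 0.41 and −0.55. They also moved with single hearts, to 0.30 and −0.66 without PKM2fl/fl sham heart 2, 0.92 and 0.02 without PKM2fl/fl sham heart 3, 0.43 and −0.63 without PKM2fl/fl MI heart 2, and 0.95 and −0.0067 without PKM2fl/fl MI heart 3. Cardiomyocyte markers went from 754582 to 879552 after sham to 148362 to 354112 after MI, and macrophage and monocyte markers went from 5322 to 9764 up to 20633 to 31173, and their part in these changes was not tested.

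By role, 5 of the 7 OAS and Mx genes were called. In the plot of values by heart, *Mx1* and *Oas3* showed the steepest steps from sham to MI. *Mx1* went from 94.6 ± 27.5 to 402 ± 189 normalized counts (SD, n = 3 each, log2 fold change 2.00 ± 0.39 SE, limma adjusted p = 0.000601). *Oas3* went from 73.2 ± 22.5 to 316 ± 119 (SD, n = 3 each, log2 fold change 2.08 ± 0.39 SE, limma adjusted p = 0.000462). *Oas1a* was called as well (log2 fold change 1.49 ± 0.32 SE, limma adjusted p = 0.00138). In all 3 genes the MI hearts were above the sham hearts, and MI heart 3 was the lowest of the MI hearts.

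*Oasl1* and *Oasl2* encode proteins related to the oligoadenylate synthetases. *Oasl1* had normalized counts of 82.4 and 41.8 at baseline, 71.7, 39.01 and 104 after sham and 271, 194 and 108 after MI in PKM2fl/fl hearts (log2 fold change 1.41 ± 0.35 SE, limma adjusted p = 0.00375). *Oasl1* in PKM2-/- hearts had 48.95 and 55.0 at baseline, 111, 86.2 and 93.9 after sham and 161, 171 and 162 after MI. In both genotypes its MI hearts were above its sham hearts, but the rise in PKM2-/- was not called (log2 fold change 0.76 ± 0.35 SE, limma adjusted p = 0.0784). *Oasl2* had 423 and 275 at baseline, 446, 298 and 980.0 after sham and 1561, 1470.3 and 839 after MI in PKM2fl/fl hearts (log2 fold change 1.29 ± 0.41 SE, limma adjusted p = 0.0151). *Oasl2* in PKM2-/- hearts had 336 and 271 at baseline, 1055, 483 and 608 after sham and 464, 878 and 995 after MI. Its groups overlapped in both genotypes, and the call in PKM2fl/fl was lost without PKM2fl/fl MI heart 1 (1.13, 0.0577), PKM2fl/fl sham heart 1 (1.20, 0.0506) or PKM2fl/fl sham heart 2 (0.91, 0.0862), with log2 fold change and limma adjusted p in parentheses.

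Among the sensors, *Dhx58* (LGP2, a regulator of the RNA helicases RIG-I and MDA5) had normalized counts of 74.6 and 49.1 at baseline, 91.7, 90.3 and 143 after sham and 380.3, 299 and 197 after MI in PKM2fl/fl hearts. *Dhx58* in PKM2-/- hearts had 64.1 and 51.3 at baseline, 175, 91.4 and 115 after sham and 212, 274 and 278 after MI. Its 3 MI hearts were above its sham hearts in both genotypes, and it was called in both (log2 fold change 1.40 ± 0.28 SE, limma adjusted p = 0.000751 in PKM2fl/fl). *Ddx58*, which encodes RIG-I itself, had 569 and 482 at baseline, 603, 572 and 735 after sham and 1549, 1259 and 986 after MI in PKM2fl/fl hearts. *Ddx58* in PKM2-/- hearts had 442 and 486 at baseline, 875, 687 and 677 after sham and 708, 941 and 1157 after MI. Its rise in PKM2fl/fl hearts was just under the 2-fold limit (log2 fold change 0.97 ± 0.19 SE, limma adjusted p = 0.000467). *Ifih1*, which encodes MDA5, also passed only the adjusted p (log2 fold change 0.52 ± 0.20 SE, limma adjusted p = 0.0453), which DESeq2 and edgeR did not give. *Ifi204* rose 2.49-fold (log2 fold change 1.32 ± 0.18 SE, limma adjusted p = 2.29e-05) and *Isg15* rose by 1.42 on the log2 scale (SE 0.35, limma adjusted p = 0.00355).

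*Bst2*, *Trim30a* and *Irf7* also passed the adjusted p without reaching 2-fold, with log2 fold changes of 0.99, 0.93 and 0.93 (limma adjusted p = 0.0153, 0.00491 and 0.0490). *Trim30a*, a restriction-factor-like ubiquitin ligase of the TRIM family, had 1039, 807 and 1460.4 normalized counts after sham and 1982, 2326 and 1824 after MI. The *Irf7* value did not pass it with DESeq2 or edgeR. *Zbp1* was not called by limma over all 16 libraries (log2 fold change 1.35 ± 0.57 SE, limma adjusted p = 0.0601), with sham heart 3 at 280 and MI heart 3 at 202 normalized counts. *Zbp1* was called with scaling to total reads (1.17, limma adjusted p = 0.0329), without PKM2fl/fl sham heart 3 (1.87, limma adjusted p = 0.0171) or MI heart 3 (1.74, limma adjusted p = 0.0296), and without either PKM2-/- baseline heart or PKM2-/- sham heart 1 (1.35 in each, limma adjusted p = 0.0447 to 0.0460). The number of members called rose from 9 to 16 without PKM2fl/fl sham heart 3 and to 15 without PKM2fl/fl MI heart 3, the hearts that stood apart from their groups. Of the 9 calls, 7 held whichever library was left out.

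Many of the best-known members did not pass the test after MI. *Ifit1*, which binds viral RNA that lacks the host's cap methylation, had normalized counts of 230.0 and 159.9 at baseline, 297, 209 and 454 after sham and 603, 575 and 283 after MI in PKM2fl/fl hearts (log2 fold change 0.60 ± 0.35 SE, limma adjusted p = 0.170). *Ifit1* in PKM2-/- hearts had 179 and 167 at baseline, 675, 291 and 393 after sham and 216, 366 and 332 after MI (log2 fold change −0.52 ± 0.35 SE, limma adjusted p = 0.221). In both genotypes the sham and MI hearts overlapped, and sham heart 1 of PKM2-/- was the highest of all 16. *Ifit3* had 214 and 115 at baseline, 209.7, 169 and 541 after sham and 509, 594 and 200.3 after MI in PKM2fl/fl hearts (log2 fold change 0.55 ± 0.49 SE, limma adjusted p = 0.375). *Ifit3* in PKM2-/- hearts had 119 and 93.5 at baseline, 635, 201 and 225 after sham and 178, 269 and 224 after MI. Its sham hearts alone spanned 169 to 541 and 201 to 635 normalized counts.

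*Rsad2*, which encodes the antiviral protein viperin, was at normalized counts of 658 and 390.1 at baseline, 553, 453 and 923 after sham and 739, 856 and 338 after MI in PKM2fl/fl hearts (log2 fold change −0.04 ± 0.34 SE, limma adjusted p = 0.938). *Rsad2* in PKM2-/- hearts was at 361 and 308 at baseline, 844, 551 and 428 after sham and 459, 596 and 547 after MI. Sham and MI hearts overlapped in both genotypes, and the highest value was that of PKM2fl/fl sham heart 3. *Stat2*, a subunit of ISGF3, had 739 and 524 at baseline, 794, 569.7 and 1135 after sham and 1223, 1179.8 and 635 after MI in PKM2fl/fl hearts (log2 fold change 0.28 ± 0.30 SE, limma adjusted p = 0.460). *Stat2* in PKM2-/- hearts had 538 and 537 at baseline, 1389, 712 and 963 after sham and 542, 813 and 818 after MI. *Usp18*, the protease that removes ISG15 and damps signaling at the receptor, had 330.5 and 294 at baseline, 385, 303 and 456 after sham and 546, 600.1 and 342 after MI in PKM2fl/fl hearts (log2 fold change 0.36 ± 0.25 SE, limma adjusted p = 0.241). *Usp18* in PKM2-/- hearts had 319 and 301 at baseline, 498, 357 and 311 after sham and 221, 362 and 388 after MI. Sham and MI hearts overlapped for both genes in both genotypes.

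*Oas2* had normalized counts of 378 and 421 at baseline, 697, 475 and 727 after sham and 1155, 1021 and 563 after MI in PKM2fl/fl hearts (log2 fold change 0.49 ± 0.30 SE, limma adjusted p = 0.192 for MI against sham). *Oas2* in PKM2-/- hearts had 395 and 329.9 at baseline, 1037, 636 and 969 after sham and 338, 628 and 759 after MI (log2 fold change −0.66 ± 0.30 SE, limma adjusted p = 0.0729). *Ifi44*, a type I target of uncertain function, had 208 and 149 at baseline, 210.3, 117 and 389 after sham and 354, 503 and 251 after MI in PKM2fl/fl hearts (log2 fold change 0.74 ± 0.40 SE, limma adjusted p = 0.135). *Ifi44* in PKM2-/- hearts had 133 and 123 at baseline, 452, 253 and 222 after sham and 103, 151 and 224 after MI (log2 fold change −0.95 ± 0.40 SE, limma adjusted p = 0.0510). Neither passed the test in either genotype, and their estimates had opposite signs in the 2 genotypes. The result for *Ifi44* turned on single hearts: it was called higher in PKM2fl/fl without sham heart 3 (1.17, limma adjusted p = 0.0207), and lower in PKM2-/- without sham heart 3 (−1.16, limma adjusted p = 0.0410) or without MI heart 3 (−1.23, limma adjusted p = 0.0261). *Cmpk2*, a mitochondrial nucleotide kinase encoded next to *Rsad2*, had 324 and 236 at baseline, 348, 272 and 484 after sham and 383, 473 and 238 after MI in PKM2fl/fl hearts. *Cmpk2* in PKM2-/- hearts had 190.0 and 170.4 at baseline, 579, 264 and 341 after sham and 226, 284 and 371 after MI. The members not yet given in full (*Ifit2*, *Ifit3b*, *Mx2*, *Herc6*, *Irf9*, *Ifi35*, *Xaf1*, *Parp14*, *Rtp4* and *Tap1*) were called by limma over all 16 libraries in no comparison, with log2 fold changes between MI and sham from −0.13 in *Ifit3b* to 0.78 in *Rtp4* in PKM2fl/fl and from −0.78 in *Ifit3b* to 0.33 in *Tap1* in PKM2-/- hearts. Besides the *Ifit3b* call by DESeq2 between sham and baseline, leaving out 1 library called *Rtp4* higher after MI in PKM2fl/fl hearts without sham heart 3 (1.08, limma adjusted p = 0.0185) and *Mx2* without MI heart 3 (1.07, limma adjusted p = 0.0276).

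**Figure D3:**
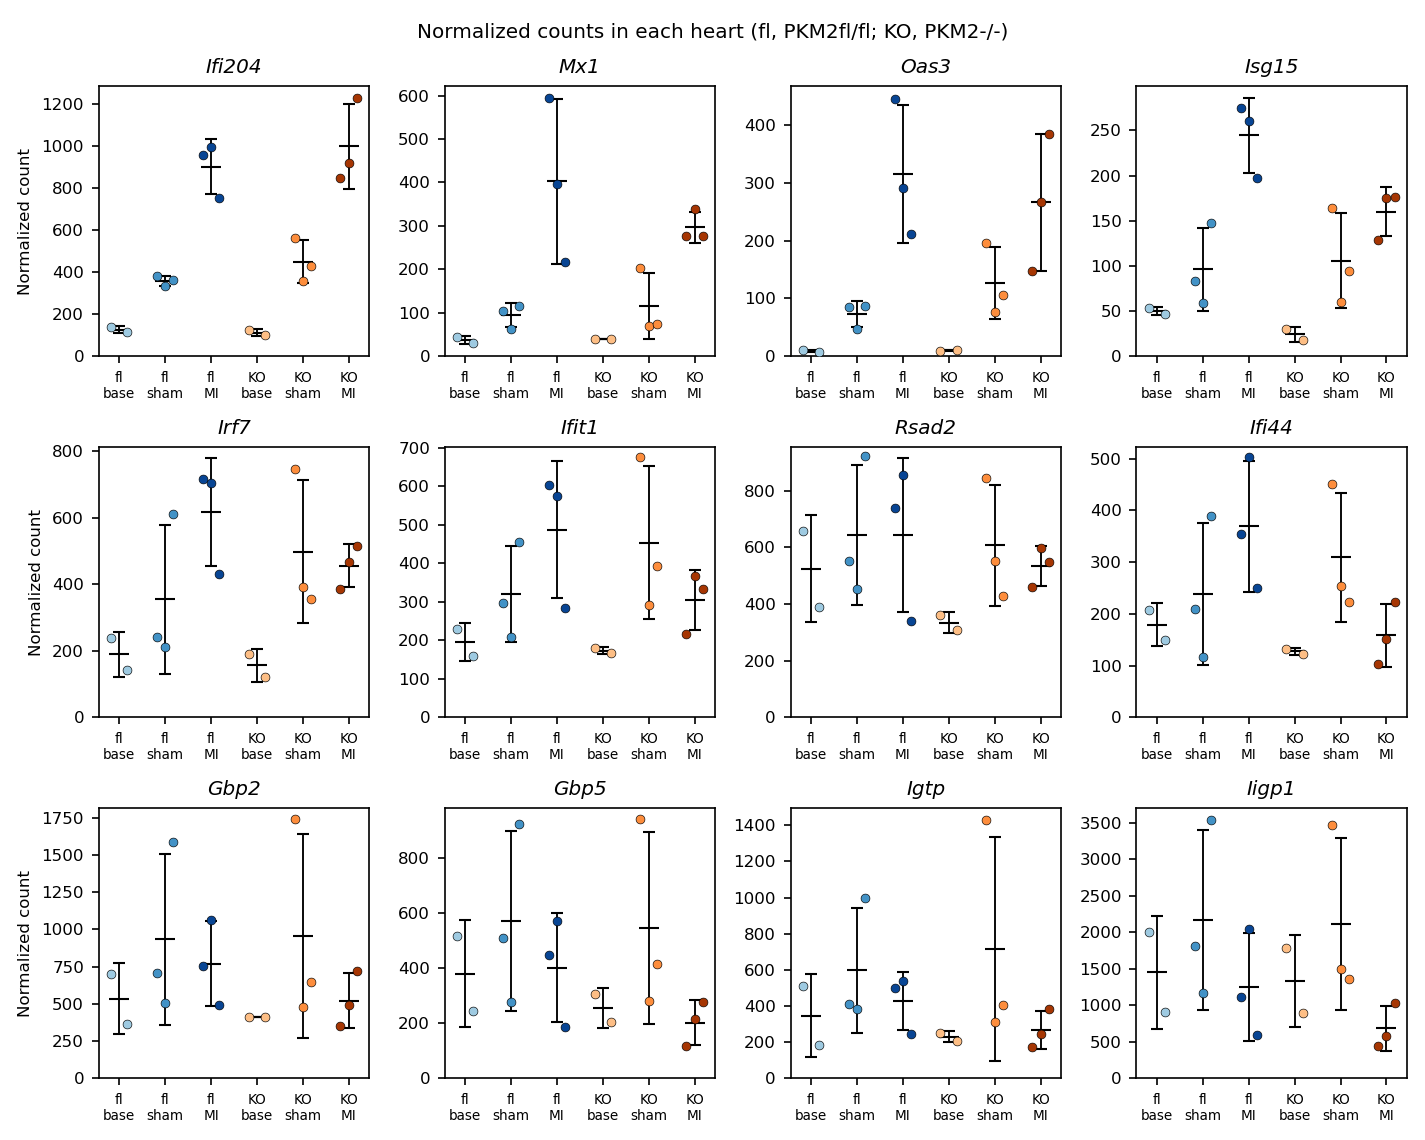
Normalized counts (linear axis from 0) of 12 members in each heart; points are hearts, the horizontal mark is the group mean and the bar 1 SD (n = 2 at baseline, 3 after sham or MI). Ifi204 and Mx1 step up from baseline to sham to MI in both genotypes, whereas the Gbp and Irg genes in the bottom row peak in 1 sham heart of each genotype.

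In PKM2-/- hearts, fewer members were called higher after MI, and 2 Gbp and Irg genes were called lower. The test called *Mx1* (log2 fold change 1.53 ± 0.39 SE, limma adjusted p = 0.00377), *Ifi204* (log2 fold change 1.16 ± 0.18 SE, limma adjusted p = 4.9e-05), *Oas3* (log2 fold change 1.07 ± 0.39 SE, limma adjusted p = 0.0302) and *Dhx58* (log2 fold change 1.04 ± 0.28 SE, limma adjusted p = 0.00562) as higher. The GTPase genes *Iigp1* and *Gbp5* were called lower, so that 4 of 41 were higher and 2 of 41 lower, against 14.5% and 14.3% of all genes. Both shares of members were below the background. The MI hearts lay above the sham hearts for 4 members and below for 4, against 31.7% and 30.6% of all genes. The estimate was below 0 for 27 of 41 members, with a median of −0.12 over type I targets and −0.94 over Gbp and Irg genes. Without PKM2-/- sham heart 1 those medians were 0.18 and −0.48, with 21 of 41 estimates below 0, and without PKM2-/- MI heart 1 they were 0.06 and −0.65, with 23 of 41 below 0. The type I median was −0.23 without PKM2-/- sham heart 2 and −0.26 without PKM2-/- sham heart 3. Scaling to total reads shifted the all-gene median to 0.52 and turned the type I median to 0.39, which is −0.13 relative to all genes, and left the GTPase median at −0.43. With that scaling 6 members were called higher (*Isg15* and *Oasl1* in addition) and 1 lower, and the calls over all genes were 5494 higher and 1512 lower in place of 2974 and 2949. *Isg15* was also called higher without PKM2-/- sham heart 1 (log2 fold change 1.07, limma adjusted p = 0.0181).

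All 4 of the genes called higher in PKM2-/- hearts were also called in PKM2fl/fl hearts, and *Mx1* was the only one of the 6 calls that held whichever library was left out. In parentheses are the log2 fold change and limma adjusted p without the library. The *Ifi204* call was lost without PKM2-/- MI heart 3 (1.00, 0.000413), with a change just under 2-fold. The *Dhx58* call was lost without PKM2-/- MI heart 2 (0.98, 0.0223), PKM2-/- MI heart 3 (0.97, 0.0230), PKM2-/- sham heart 2 (0.83, 0.0328) or PKM2-/- sham heart 3 (0.99, 0.0200). The *Oas3* call was lost without PKM2-/- MI heart 2 (1.02, 0.0779), PKM2-/- MI heart 3 (0.76, 0.149), PKM2-/- sham heart 2 (0.77, 0.138) or PKM2-/- sham heart 3 (1.00, 0.0805). The total called was 3 without PKM2-/- MI heart 2 and between 4 and 6 without any other library. Between PKM2-/- sham and MI hearts, macrophage and monocyte markers went from 6557 to 8836 up to 24811 to 29934, and neutrophil markers from 974 to 1254 up to 3527 to 4521, and their part was not tested.

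**Figure D4:**
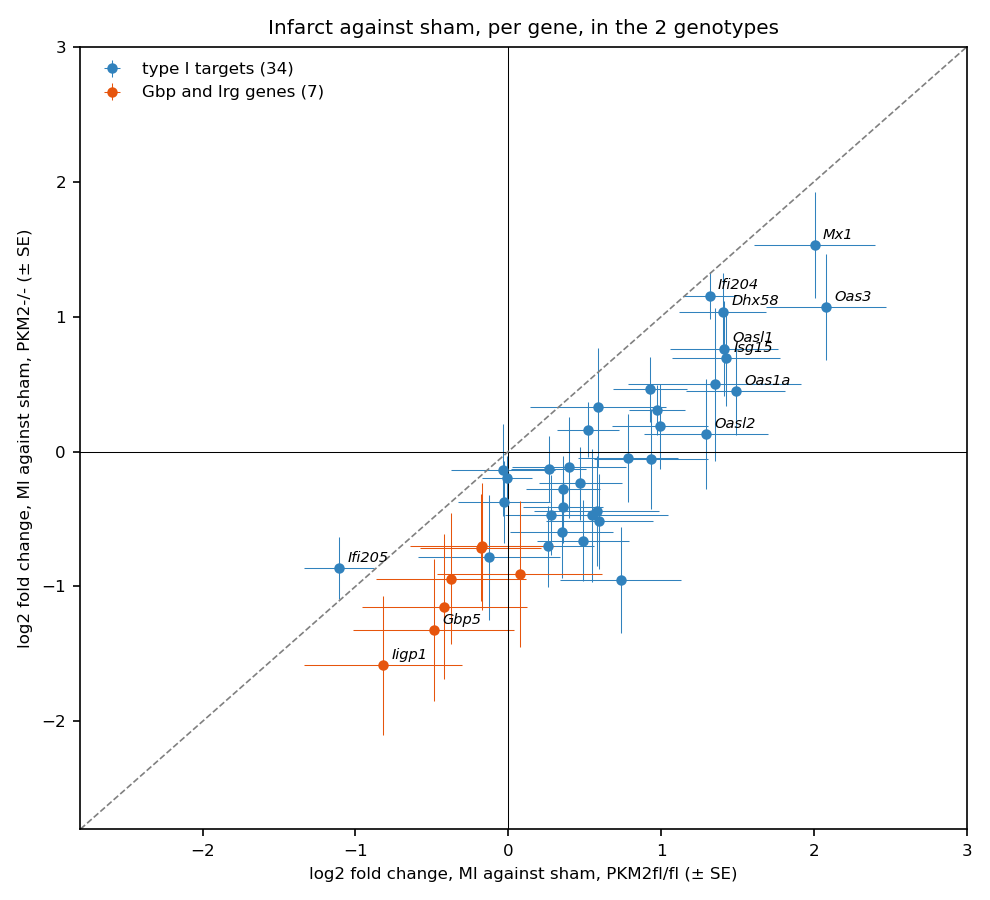
Log2 fold change between MI and sham hearts of each member in PKM2fl/fl (horizontal) against PKM2-/- (vertical), with bars of 1 SE; the dashed line marks equal values, and members called in either genotype are named. Of the 41 points, 40 lie below the dashed line, and the 7 Gbp and Irg genes lie below 0 on the vertical axis.

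In the infarcted hearts the Gbp and Irg genes lay below the type I targets, relative to baseline. These GTPases act on the membranes of vacuoles that enclose intracellular microbes. The level of each set in a heart was taken as the median, over its genes, of the log2 level minus the mean of the 4 baseline hearts. In the 6 MI hearts, the Gbp and Irg median was 0.41 to 1.12 below the type I median. In the 6 sham hearts, the difference (Gbp and Irg minus type I) ran from −0.36 to 0.44, and in the 4 baseline hearts from −0.22 to 0.44. The MI hearts did not overlap with the others in this difference, although the gap between PKM2-/- MI heart 3 (−0.41) and PKM2-/- sham heart 2 (−0.36) was small. Within sham groups both sets were highest in the same heart, with medians of 1.19 and 1.63 (type I, then Gbp and Irg) in PKM2fl/fl sham heart 3 and of 1.502 and 1.89 in PKM2-/- sham heart 1.

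**Figure D5:**
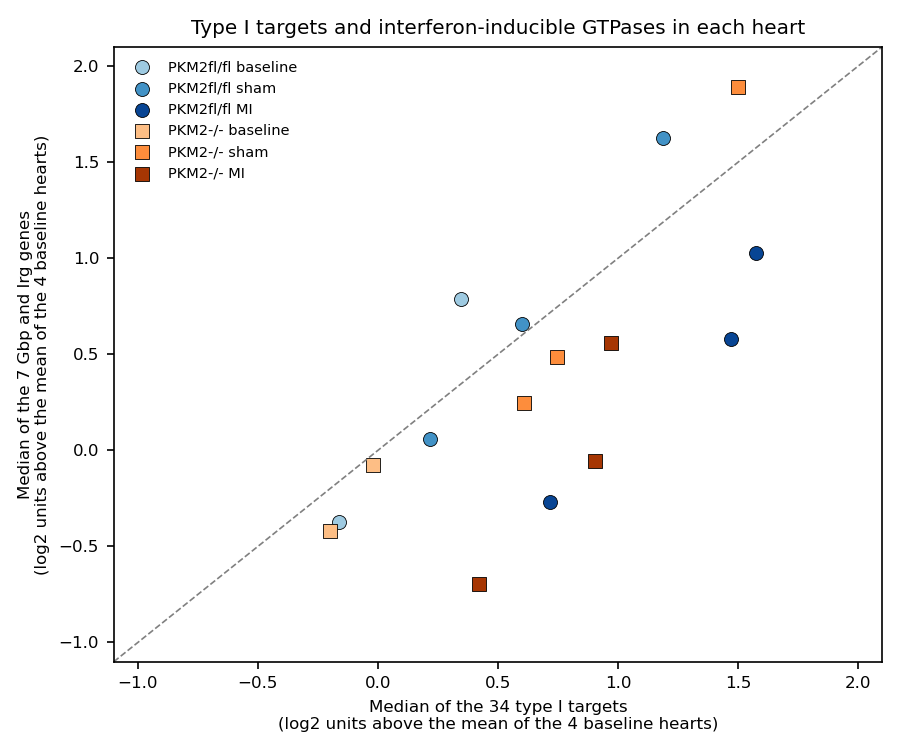
Median of the 7 Gbp and Irg genes (vertical) against the median of the 34 type I targets (horizontal) in each heart, both in log2 units above the mean of the 4 baseline hearts; the dashed line marks equal values. The 6 MI hearts all lie below the line, by 0.41 to 1.12, and the highest sham heart of each genotype lies above it.

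*Iigp1*, an effector GTPase of the Irg family, had normalized counts of 1997 and 902 at baseline, 1807, 1164 and 3541 after sham and 1116, 2043 and 594 after MI in PKM2fl/fl hearts. *Iigp1* in PKM2-/- hearts had 1779.7 and 889 at baseline, 3469, 1501 and 1364 after sham and 443, 575 and 1030.0 after MI. All 3 PKM2-/- MI hearts were below all 3 PKM2-/- sham hearts, a 3.00-fold fall (log2 fold change −1.58 ± 0.52 SE, limma adjusted p = 0.0161), whereas PKM2fl/fl sham and MI hearts overlapped (log2 fold change −0.82 ± 0.52 SE, limma adjusted p = 0.202). *Gbp5*, a guanylate-binding protein known for promoting inflammasome assembly, had 517 and 243 at baseline, 511, 277 and 925 after sham and 447, 572 and 186 after MI in PKM2fl/fl hearts. *Gbp5* in PKM2-/- hearts had 308 and 205 at baseline, 940.5, 279 and 414 after sham and 116, 214 and 277 after MI. The highest PKM2-/- MI heart was just under the lowest sham heart, and the fall was called (log2 fold change −1.32 ± 0.53 SE, limma adjusted p = 0.0431).

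Without the sham heart that stood apart, neither fall was called. The *Iigp1* call was lost without PKM2-/- MI heart 1 (−1.32, 0.0690) or PKM2-/- sham heart 1 (−1.16, 0.0880), with the log2 fold change and limma adjusted p in parentheses. The *Gbp5* call was lost without PKM2fl/fl sham heart 1 (−1.32, 0.0525), PKM2-/- MI heart 1 (−0.97, 0.171), PKM2-/- MI heart 2 (−1.41, 0.0672), PKM2-/- baseline heart 1 (−1.32, 0.05005), PKM2-/- baseline heart 2 (−1.32, 0.0501), PKM2-/- sham heart 1 (−0.84, 0.210) or PKM2-/- sham heart 3 (−1.43, 0.0639). It was also lost with no filter on low values (−1.32, 0.0670) and with scaling to total reads (−0.81, 0.0952). The difference of the MI effect between genotypes was not past the threshold for either gene (log2 fold change −0.77 ± 0.73 SE, limma adjusted p = 0.801 for *Iigp1*, log2 fold change −0.84 ± 0.75 SE, limma adjusted p = 0.787 for *Gbp5*).

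*Gbp2* had normalized counts of 703 and 365 at baseline, 709, 507 and 1588 after sham and 757, 1061 and 496 after MI in PKM2fl/fl hearts. *Gbp2* in PKM2-/- hearts had 415 and 414 at baseline, 1743, 478 and 648 after sham and 350.2, 495 and 721 after MI. *Igtp*, a regulatory Irg protein, had 509 and 183 at baseline, 412, 386 and 997 after sham and 499, 540.1 and 245 after MI in PKM2fl/fl hearts. *Igtp* in PKM2-/- hearts had 251 and 209 at baseline, 1429, 313 and 405 after sham and 176, 245 and 382 after MI. In both genes PKM2fl/fl sham heart 3 and PKM2-/- sham heart 1 were higher than any other heart, and the log2 fold changes between MI and sham were not called by limma (−0.17 and −0.70 for *Gbp2* and −0.42 and −1.15 for *Igtp*, in PKM2fl/fl and PKM2-/-). *Gbp3*, *Gbp7* and *Irgm1* had estimates of 0.07, −0.38 and −0.18 in PKM2fl/fl and −0.91, −0.94 and −0.71 in PKM2-/- hearts, none of them called by limma. edgeR called *Igtp* lower in PKM2-/- hearts (log2 fold change −1.43, edgeR adjusted p = 0.0406), and so did limma without PKM2-/- sham heart 2 (−1.58, limma adjusted p = 0.0321). The sign was negative for 7 of 7 of these genes in PKM2-/- hearts under every other scaling and tool tried, and for 6 or 7 of 7 in PKM2fl/fl hearts. Without PKM2fl/fl sham heart 3 it was negative for 3 of 7 in PKM2fl/fl hearts, and without PKM2fl/fl MI heart 3 for 4 of 7.

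At baseline, no member differed between the genotypes past the test. Of all genes, 0.00972% were called, and 405 of 20576 were lower and 343 higher at an unadjusted limma p under 0.05. Of the 41, 0 were called by limma, DESeq2 or edgeR, and 1, *Isg15*, had an unadjusted p under 0.05 (0 in edgeR), with 53.4 and 47.1 normalized counts in PKM2fl/fl and 30.3 and 18.3 in PKM2-/- hearts (log2 fold change −1.06 ± 0.43 SE, limma adjusted p = 1). Estimates were below 0 for 37 of 41 members (median −0.18, all genes −0.0034), and for 14 of 41 without PKM2fl/fl baseline heart 1 (median 0.11), while the median was −0.52 without PKM2fl/fl baseline heart 2 and −0.32 without PKM2-/- baseline heart 1. With scaling to total reads, which shifted the all-gene median to −0.59, 41 of 41 were below 0 and 14 had an unadjusted p under 0.05, with 0 called. In that scaling 2562 of 20698 genes were lower at that p. The PKM2-/- hearts were both below the PKM2fl/fl hearts for 5 members (*Isg15*, *Rsad2*, *Cmpk2*, *Ifi44* and *Ifi35*), against 17.2% of all genes. The next smallest unadjusted p values were those of *Cmpk2* and *Rsad2*, with log2 fold changes of −0.62 and −0.60. These comparisons rest on 2 hearts of each genotype, and the baseline libraries also differed by genotype in their share of rRNA reads, whose part was not tested.

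After sham surgery, no member differed between the genotypes past the test either. No member's groups were apart, against 8.27% of all genes apart and higher in PKM2-/- and 8.28% apart and lower. Of all genes, 0.00486% were called, and 1125 of 20576 were higher and 922 lower at an unadjusted limma p under 0.05. Of the 41, 0 were called by limma, DESeq2 or edgeR, and 1 had an unadjusted p under 0.05, *Ifi27l2a* (log2 fold change 0.63 ± 0.26 SE, limma adjusted p = 0.437). *Oas3* and *Ifi204* followed, with log2 fold changes of 0.72 and 0.30 and limma adjusted p of 0.590 and 0.622. The estimate was above 0 in PKM2-/- for 36 of 41 members, and for 11 of 41 when libraries were scaled to total reads, which shifted the all-gene median to −0.33. It was above 0 for 18 of 41 without PKM2fl/fl sham heart 2 and for 19 of 41 without PKM2-/- sham heart 1, which moved the members' median from 0.21 to −0.0082 and −0.017. It was above 0 for 40 of 41 without PKM2fl/fl sham heart 3 (median 0.47), PKM2-/- sham heart 2 (0.42) or PKM2-/- sham heart 3 (0.31). The number with an unadjusted p under 0.05 was 8 without PKM2fl/fl sham heart 3, 4 without PKM2-/- sham heart 2 and 0 without PKM2fl/fl sham heart 1 or 2 or PKM2-/- sham heart 1. Of all 20576 genes, 866 were higher at that p without PKM2fl/fl sham heart 3, 935 without PKM2fl/fl sham heart 1 and 993 without PKM2fl/fl sham heart 2.

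After MI, estimates were lower in PKM2-/- than in PKM2fl/fl hearts for 39 of 41 members, against 50.5% of all genes, with a median of −0.45. The median was −0.73 without PKM2fl/fl MI heart 3 and −0.28 without PKM2-/- MI heart 1. None of them was called in this fit, with 0.413% of all genes called. The exceptions in sign were *Ifi204* and *Ifi205*, at 0.14 and 0.23. An unadjusted p under 0.05 was reached by 5 members, all lower (*Ifi44*, *Usp18*, *Ddx58*, *Oas2* and *Xaf1*), against 1859 of all 20576 genes lower, and edgeR called 0 members. The number of members was 17 without PKM2fl/fl MI heart 3 (3201 of all genes lower). It was 1 without PKM2fl/fl MI heart 1 (1513 of all genes lower), PKM2fl/fl MI heart 2 (1141 of all genes lower) or PKM2-/- MI heart 1. The largest difference was that of *Ifi44*, with 354, 503 and 251 normalized counts in PKM2fl/fl and 103, 151 and 224 in PKM2-/- MI hearts (log2 fold change −1.22 ± 0.40 SE, limma adjusted p = 0.133). The groups did not overlap for *Ifi44*, *Isg15* and *Rtp4*, against 8.26% of all genes lower without overlap. *Isg15* had 275, 260.4 and 198 normalized counts in PKM2fl/fl and 129, 175 and 176 in PKM2-/- MI hearts (log2 fold change −0.61 ± 0.35 SE, limma adjusted p = 0.405).

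The result for *Ifi44* depended on the tool and on 1 heart. DESeq2 called *Ifi44* lower (log2 fold change −1.22, DESeq2 adjusted p = 0.0383). Without PKM2fl/fl MI heart 3, the lowest of its group for every member, limma called *Ifi44* (−1.47, limma adjusted p = 0.0377) and *Mx2* (−1.22, limma adjusted p = 0.0444). With scaling to total reads, which shifted the all-gene median to 0.36, the estimate was below 0 for 25 of 41 members and the members' median was −0.08, which is −0.44 relative to all genes. PKM2fl/fl MI heart 3 also had the fewest cardiomyocyte (148362 against 323934 and 354112) and the most macrophage and monocyte marker counts (31173 against 20633 and 23227) of its group. The PKM2-/- MI hearts were at 156298 to 224069 and 24811 to 29934 for these sums. Neutrophil markers were at 1232 to 2138 in PKM2fl/fl and at 3527 to 4521 in PKM2-/- MI hearts, which did not overlap. The part of these cell types in the comparison was not tested.

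The test of whether the MI effect differed between the genotypes called 0 of the 41 members and 0% of all genes, and DESeq2 and edgeR also called 0 members. Estimates were below 0, that is, with a smaller rise or larger fall in PKM2-/- hearts, for 40 of 41 members, against 51.0% of all genes, and their median was −0.73 (all genes, −0.0081). Without PKM2-/- sham heart 1 the median was −0.36, with 35 of 41 below 0, and without PKM2fl/fl sham heart 2 or PKM2-/- MI heart 1 it was −0.48. The number with an unadjusted p under 0.05 rose to 18 without PKM2fl/fl sham heart 3, 17 without PKM2fl/fl MI heart 3, 13 without PKM2-/- sham heart 2 and 12 without PKM2-/- MI heart 3, and fell to 3 without PKM2fl/fl MI heart 2, 2 without PKM2fl/fl sham heart 2, PKM2fl/fl MI heart 1 or PKM2-/- sham heart 1, and 1 without PKM2-/- MI heart 1. With all 16 libraries it was 6 (*Ifi44*, *Oas2*, *Ddx58*, *Xaf1*, *Oas1a* and *Ifit1*), all lower, against 844 of all 20576 genes lower. That count over all genes was 837 without PKM2fl/fl sham heart 3 and 2183 without PKM2fl/fl MI heart 3. The lowest limma adjusted p of the members was that of *Ifi44* (log2 fold change −1.69 ± 0.56 SE, limma adjusted p = 0.4997). *Oas2* and *Ddx58* followed (log2 fold change −1.15 ± 0.42 SE, limma adjusted p = 0.538 for *Oas2*, log2 fold change −0.67 ± 0.26 SE, limma adjusted p = 0.540 for *Ddx58*). Members are read from the same hearts, so the number of members with 1 sign is not a number of independent results. This estimate shares its sham and MI hearts with the comparisons above. With scaling to total reads, which shifted the all-gene median to 0.68, estimates were below 0 for 22 of 41 members, with a median of −0.72 relative to all genes. In that scaling 1 member, higher, had an unadjusted p under 0.05, against 3920 of 20698 genes higher.

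Of the other genes of interferon signaling, 36 were listed and 28 passed the minimum for testing. Among the 8 listed ligand genes, 7 (*Ifnb1*, *Ifna1*, *Ifna2*, *Ifna4*, *Ifna5*, *Ifng* and *Ifne*) had 0 reads in 603433522 reads over the 16 libraries. A count of 0 leaves room for an expected count of up to 3 reads per gene in all. Since the treatment of reads that fit more than 1 gene is not stated, it does not show that these transcripts were absent. The exception, *Ifnk*, had 73 reads in all. After MI, 8 of the 28 were called higher and 0 lower in PKM2fl/fl hearts, against 12.4% and 11.1% of all genes. In PKM2-/- hearts 9 were called higher and 1 lower, against 14.5% and 14.3% of all genes. In the genotype comparisons 0 of the 28 were called, against 0.00972% of all genes at baseline, 0.00486% after sham and 0.413% after MI.

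The receptor subunit gene *Ifnar1* had 691, 727 and 664 normalized counts after sham and 1456, 1489.5 and 1919.7 after MI in PKM2fl/fl hearts (log2 fold change 1.21 ± 0.10 SE, limma adjusted p = 4.7e-07). In PKM2-/- hearts, *Ifnar1* rose from 654, 693 and 738 to 1698, 1698 and 1841 (log2 fold change 1.33 ± 0.10 SE, limma adjusted p = 1.59e-07). The groups were far apart in both genotypes. The DNA-sensing genes *Cgas* and *Sting1* rose in both genotypes, by 1.79 and 1.80 on the log2 scale in PKM2fl/fl and by 1.56 and 1.67 in PKM2-/- hearts. So did the kinase gene *Ikbke* (2.13 and 2.11), the endosomal receptors *Tlr7* (1.72 and 2.00) and *Tlr9* (2.12 and 1.83), the myeloid transcription factor *Irf8* (1.46 and 1.62) and the cytokine-signaling inhibitor *Socs3* (1.74 and 1.69). The highest limma adjusted p among these was 0.000903, that of *Socs3* in PKM2-/- hearts. Macrophage and monocyte markers rose and cardiomyocyte markers fell between the same sham and MI hearts. Their part in the changes of the pathway genes was not tested.

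*Irf5* was called in PKM2-/- hearts and under 2-fold in PKM2fl/fl hearts (1.14 and 0.83), a difference between genotypes that was not past the threshold (log2 fold change 0.32 ± 0.17 SE, limma adjusted p = 0.657). *Mavs*, the mitochondrial adaptor of the RNA sensors, had 1099, 1278 and 1314 normalized counts after sham and 838, 788 and 507 after MI in PKM2fl/fl hearts (log2 fold change −0.82 ± 0.17 SE, limma adjusted p = 0.000741). In PKM2-/- hearts, *Mavs* fell from 1276, 1301 and 1643 to 505, 502 and 559.7 (log2 fold change −1.42 ± 0.17 SE, limma adjusted p = 4.5e-06). It was the only pathway gene called lower after MI, in PKM2-/- hearts, and the difference of the falls was not past the threshold (log2 fold change −0.60 ± 0.23 SE, limma adjusted p = 0.540). *Jak2*, among the smallest unadjusted p values in PKM2fl/fl hearts, rose by 0.91 in PKM2fl/fl and 0.87 in PKM2-/- hearts, under 2-fold in both. Between sham and baseline, 2 of the 28 were called higher, against 2.06% of all genes. These were *Tlr7* (log2 fold change 1.09 ± 0.15 SE, limma adjusted p = 0.000932) and *Socs3* (log2 fold change 1.67 ± 0.28 SE, limma adjusted p = 0.00283).

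Markers of T and NK cells, summed over 6 genes, were at 19.8 to 51.4 normalized counts in every library, with *Cd3e*, *Cd3g* and *Nkg7* at 0 in at least 1 library of the series. Of the 3 listed markers of plasmacytoid dendritic cells, *Siglech* was at 14.4 to 21.0 in PKM2-/- MI hearts, above the 3.22 to 12.9 of PKM2-/- sham hearts. In PKM2fl/fl hearts *Siglech* was at 2.94 to 10.3 after sham and 3.09 to 11.0 after MI, which overlapped. *Klk1* was at 0 in some libraries, and *Ccr9* was at 702 to 897 in all groups. Endothelial markers (4 genes) were at 12859 to 17406 normalized counts in every library, and fibroblast markers (4 genes) went from 14685 to 23476 after sham up to 50370 to 76727 after MI.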

How the data were processed

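RNA was sequenced as rRNA-depleted, paired-end libraries (NEBNext) from left ventricles with an RNA integrity number of at least 8. As given in the study's methods and the submitters' processing notes, the authors used PRINSEQ for trimming, HISAT2 for alignment to mm10, featureCounts for counting over genes and DESeq2 for the size factors by which counts were divided. Strand and multi-mapping settings are not given in the sources used here. The deposited signal, normalized counts for 55492 genes in 16 libraries, was used. The authors' own columns of their baseline comparison (log2 fold change and its error, a test score, p-value and adjusted p-value) were not used, and 0 columns of per-sample values lacked a sample.

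Whole reads were recovered by dividing by the smallest step of each library, and 100% of values came out whole within 0.01 read. The libraries held 20623769 to 71855101 reads. Groups and replicate numbers came from the labels, and since each library came from its own mouse, p-values measure the spread between mice. limma 3.58.1 (R 4.3.3, trend) was fitted to log2(value + 1) over all 16 libraries in 6 groups, for the 20576 genes whose mean was 10 or more, with Benjamini-Hochberg adjustment. The fit was tested on simulated data. A value was called at an adjusted p under 0.05 and at least 2-fold. Groups were apart when no heart of one lay within the range of the other.

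The members and all gene lists were chosen with earlier results of these data known. Values in every library are given for 13 members listed at the outset and for any other member called in a comparison or among the 3 smallest unadjusted p values of the members in one. Of the other pathway genes, those called and the 3 with the smallest unadjusted p after MI are named. Values by heart are given for *Ifnar1* and *Mavs* after sham and MI, and fold changes for the rest. *Trim30a*, *Ifih1*, *Mx2* and *Rtp4* were named in addition after their values were seen. Alternatives were DESeq2 1.42.0 and edgeR 4.0.16 on the recovered reads, scaling to total reads, a pseudocount of 0.1, no filter, only the groups compared, no fold threshold, the replicate number as a block, and each library left out in turn. Promoter windows and gene positions are from RefSeq (GRCm38.p6), and transcript similarity is from GENCODE M39 by blastn.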

Additional observations from a re-analysis of the deposited data

How the results depend on the processing

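The count of interferon-stimulated genes called between MI and sham in PKM2fl/fl hearts was 9, and 14 with no fold threshold. Leaving out 1 library at a time gave 7 to 16 there, 3 to 6 (6 as reported) in PKM2-/- hearts, 6 to 13 (10 as reported) between sham and baseline, and 0 to 2 (0 as reported) between genotypes after MI. The other genotype comparisons and the interaction stayed at 0. DESeq2 called 1 member between genotypes after MI, and total count scaling called 17 between sham and baseline. The causes of these differences were not tested, beyond the rule or library that each alternative changed. Under total count scaling, 2 values reversed: *Ifi204* in PKM2-/- against PKM2fl/fl hearts after sham (−0.0218) and *Ddx58* in the interaction (0.0215). Of the 48 fold changes named by rule, 36 were past the adjusted p. Over the fits that left out a library, 682 values kept their direction and side of the threshold, 83 lost the threshold and 3 gained it. Over the other alternatives, 306 kept both, 27 lost the threshold, 1 gained it and 2 reversed.

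The labels do not say whether the replicate numbers pair the hearts, and each library came from its own mouse. The correlations of same-numbered hearts ran from −0.057 to 0.126. They were taken on deviations from group means of 2 or 3 hearts and cannot exclude a pairing. With the replicate number as a block, 9 members were called in PKM2fl/fl and 6 in PKM2-/- hearts after MI, 8 between sham and baseline, and 0 in the other 4 comparisons. Over all genes the block gave 46 calls in place of 85 between genotypes after MI, 1 in place of 2 at baseline and 0 in place of 1 after sham.

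Counts over all genes that moved by more than 1.5 times were as follows. With no fold threshold they were 10299 in place of 4832 (PKM2fl/fl) and 11679 in place of 5923 (PKM2-/-) after MI, 2 in place of 1 between genotypes after sham, 199 in place of 85 after MI, and 1346 in place of 466 between sham and baseline. In genotype comparisons at baseline, after sham and after MI (2, 1 and 85 as reported), the groups compared alone gave 41, 9 and 6, and DESeq2 gave 11, 108 and 271, with 34 in place of 0 for the interaction. Total count scaling gave 44 at baseline, 113 after sham and 54 for the interaction, a pseudocount of 0.1 gave 9 at baseline, edgeR gave 1 at baseline and no filter gave 0 after sham. Leaving out 1 library gave 0 to 40 at baseline, 0 to 49 after sham, 11 to 632 after MI and 0 to 226 for the interaction. edgeR on the recovered reads called 5305 genes in PKM2fl/fl and 6470 in PKM2-/- hearts after MI. Each group holds 2 or 3 hearts, which limits the precision.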
